A study of Homo sapiens with 6 samples.

Results

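A group of 10 genes of growth factor signalling at the cell surface, 7 receptor tyrosine kinases (EGFR, PDGFRA, PDGFRB, MET, AXL, FGFR1 and EPHA2) and 3 ligands of EGFR (HBEGF, AREG and EREG), was examined in RSL3-treated U87MG cells. They were chosen by name, without a threshold on any measurement, and all 10 were found among the 65988 gene identifiers of the count tables. Of these identifiers 16105 were tested, among them 9 of the 10 genes, since AREG was below the filter on low counts. The study sequenced RNA from U87MG, an established human glioblastoma cell line of wild-type genotype per the labels, in 6 libraries. The 3 control libraries came from cells given vehicle, and the 3 RSL3 libraries came from cells given 2 µM RSL3, an inhibitor of the lipid peroxide-reducing enzyme GPX4 that triggers ferroptosis, an iron-dependent form of cell death driven by lipid peroxidation. A figure legend of the study gives an exposure of 24 h, and both groups share the same line, medium and serum. A single line was used. The study describes its experiments or samples in general as biologically independent, but neither its methods nor the labels say whether these libraries came from separate cultures; if they did not, p-values measure the spread between these libraries, which may be technical.

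Receptor tyrosine kinases span the plasma membrane. Binding of a ligand brings receptor chains together, the kinase domains phosphorylate each other on tyrosines, and adaptors docking on these sites pass the signal to the RAS-MAPK, PI3K-AKT, PLCγ and STAT pathways. EGFR ligands are made as membrane-anchored precursors that ADAM metalloproteases cut to release the soluble factor. EGFR, PDGFRA and MET are the receptors most often amplified or altered in glioblastoma, and AXL and EPHA2 are known as receptors of mesenchymal and stem-like glioma cells. RNA counts measure none of the cleavage, phosphorylation or degradation steps by which these proteins are controlled.

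Total counts ranged from 27813462 to 43306335 per library. At an adjusted p under 0.05 (edgeR quasi-likelihood test, Benjamini-Hochberg over all genes tested), 4123 genes (25.6% of those tested) were called, 2082 of them (12.9%) upregulated and 2041 (12.7%) downregulated. The labelled line was checked against markers. CDKN2A and CDKN2B, which are deleted in U87MG, were listed at 0 in every library. Of 8 glioma line markers, 7 were tested and 4 were lower after RSL3 (VIM, CD44, FN1 and CHI3L1). The other 3 tested had log2 fold changes above 0 and were not called. They were NES (0.25, edgeR adjusted p = 0.203), OLIG2 (0.13, edgeR adjusted p = 0.347) and GFAP (0.40, edgeR adjusted p = 0.0726, 19.9% of exon bases shared). The summed normalized count of all 8 was 164810 to 170630 in control and 137472 to 145721 in RSL3 libraries. VIM and FN1 gave most of this sum. SOX2 was nearly absent, with a mean of 0.308 normalized counts in control and 1.11 in RSL3. Of 12 markers of epithelial, immune, endothelial, neuronal, oligodendrocyte and astrocyte cells, 5 were tested, SYT1 and MBP were higher and VWF was lower; their sum was 1089 to 1121 in control and 1255 to 1276 in RSL3, of which SYT1 gave most, while MOG and AQP4 were at 0 in every library and PTPRC had a mean of 0.308 in control and 0.333 in RSL3. The part of these markers in the results below was not tested. In bulk RNA, fewer cells that express a gene and less of its RNA per cell cannot be told apart.

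Promoter sequences are shown for the 3 ligands and for EPHA2, since these hold the 3 members with the greatest called fold changes and the barely detected neighbour of EREG. They are the 250 bases before the RefSeq transcription start on GRCh38.p14, read 5′ to 3′ on the strand of the gene, with motif matches in capitals. EREG lies at chr4:74364895-74365144 (plus strand), AREG at chr4:74444886-74445135 (plus strand), HBEGF at chr5:140346604-140346853 (minus strand) and EPHA2 at chr1:16156070-16156319 (minus strand).
EREG: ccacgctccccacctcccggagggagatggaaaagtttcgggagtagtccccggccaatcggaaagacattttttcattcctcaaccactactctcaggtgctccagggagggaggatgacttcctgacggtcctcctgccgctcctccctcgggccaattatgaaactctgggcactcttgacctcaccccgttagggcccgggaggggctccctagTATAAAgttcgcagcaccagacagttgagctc
AREG: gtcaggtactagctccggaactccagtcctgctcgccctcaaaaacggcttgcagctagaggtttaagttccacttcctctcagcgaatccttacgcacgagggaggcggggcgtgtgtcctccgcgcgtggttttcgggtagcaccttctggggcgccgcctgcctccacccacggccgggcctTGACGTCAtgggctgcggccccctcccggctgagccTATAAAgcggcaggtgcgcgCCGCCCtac
HBEGF: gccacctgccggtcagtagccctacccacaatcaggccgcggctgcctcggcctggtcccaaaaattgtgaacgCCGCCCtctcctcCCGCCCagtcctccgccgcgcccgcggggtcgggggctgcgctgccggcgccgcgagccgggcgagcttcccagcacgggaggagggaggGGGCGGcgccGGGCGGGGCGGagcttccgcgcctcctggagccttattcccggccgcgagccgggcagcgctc
EPHA2: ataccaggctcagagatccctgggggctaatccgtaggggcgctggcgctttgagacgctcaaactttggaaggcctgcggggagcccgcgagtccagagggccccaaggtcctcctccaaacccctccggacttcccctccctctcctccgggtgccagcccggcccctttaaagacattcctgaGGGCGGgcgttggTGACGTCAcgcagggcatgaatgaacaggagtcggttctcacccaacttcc
EREG and AREG both hold a TATA box (TATAAA), at bases 32 to 27 before the start in EREG and 29 to 24 in AREG. AREG and EPHA2 both hold a full cyclic AMP response element (CRE, TGACGTCA), at bases 65 to 58 and 51 to 44. HBEGF holds 5 GC boxes (GGGCGG on either strand, 2 of them sharing a base), AREG 1, EPHA2 1 and EREG 0. On both strands of 35116 RefSeq promoters of this length, 10.7% held the TATA box, 1.65% the CRE and 42.6% a GC box. GC content was 58.0% for EREG, 65.2% for AREG, 76.4% for HBEGF and 63.2% for EPHA2. RefSeq entries were matched for 9 of the 10 genes, with 12 starts in all. A GC box was found at 8 of these starts, the AP-1 letters (TGANTCA, 6.57% of all promoters) at 2, belonging to EGFR and PDGFRA, and the core of the antioxidant response element (TGACNNNGC, 10.9%) at 1, belonging to AXL. The second EGFR start had 2 TATA boxes and 2 AP-1 matches, whereas its first start had 2 GC boxes. A match of letters is a description and no evidence of binding.

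Of the 3 ligands chosen, EREG and HBEGF were upregulated after RSL3, by 1.52-fold and 1.69-fold, while AREG gave almost no reads in either group. EREG (epiregulin, ENSG00000124882, chr4:74365145-74388749 on the plus strand of GRCh38) binds EGFR and ERBB4. Its normalized counts, scaled to a common library size, were 10760, 10865 and 11073 in the control libraries and 17066, 17262 and 15240 in the RSL3 libraries. The groups did not overlap, and the lowest RSL3 library still lay well above the highest control. The mean went from 10899 ± 160 to 16522 ± 1115 (SD, n = 3 each), a log2 fold change of 0.60 (SE 0.04, 95% interval 0.52 to 0.68, edgeR adjusted p = 2.54e-10), and this was the smallest p among the 10 genes, ranking 35 among all genes tested. EREG was also the most abundant of the 10 genes in counts, with only 3.12% of tested genes higher in control libraries.

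HBEGF (ENSG00000113070, chr5:140332843-140346603, minus strand) encodes heparin-binding EGF-like growth factor, whose membrane form is also the diphtheria toxin receptor. It gave 309, 297 and 344 normalized counts in control and 574, 526 and 510 in RSL3 libraries. Every RSL3 library was above every control library. The mean rose from 316 ± 24.6 to 537 ± 33.1 (log2 fold change 0.76, SE 0.09, 95% interval 0.57 to 0.94, edgeR adjusted p = 1.25e-06), and 4.37% of tested genes had a greater absolute log2 fold change. Its level was in the lower part of the table, 58.4% of tested genes having a higher control mean.

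AREG (amphiregulin, ENSG00000109321, chr4:74445136-74455005, plus strand) gave raw counts of 1, 0 and 1 in control and 0, 0 and 1 in RSL3 libraries. The sums were 2 reads in control (exact Poisson 95% interval 0.242 to 7.22) and 1 in RSL3 (0.0253 to 5.57), intervals that cover counting error only. No difference was detectable at this depth. AREG and EREG are neighbours in the same orientation, 56.4 kb apart, and yet one was at the detection limit and the other was among the most abundant transcripts of these cells.

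**Figure D1:**
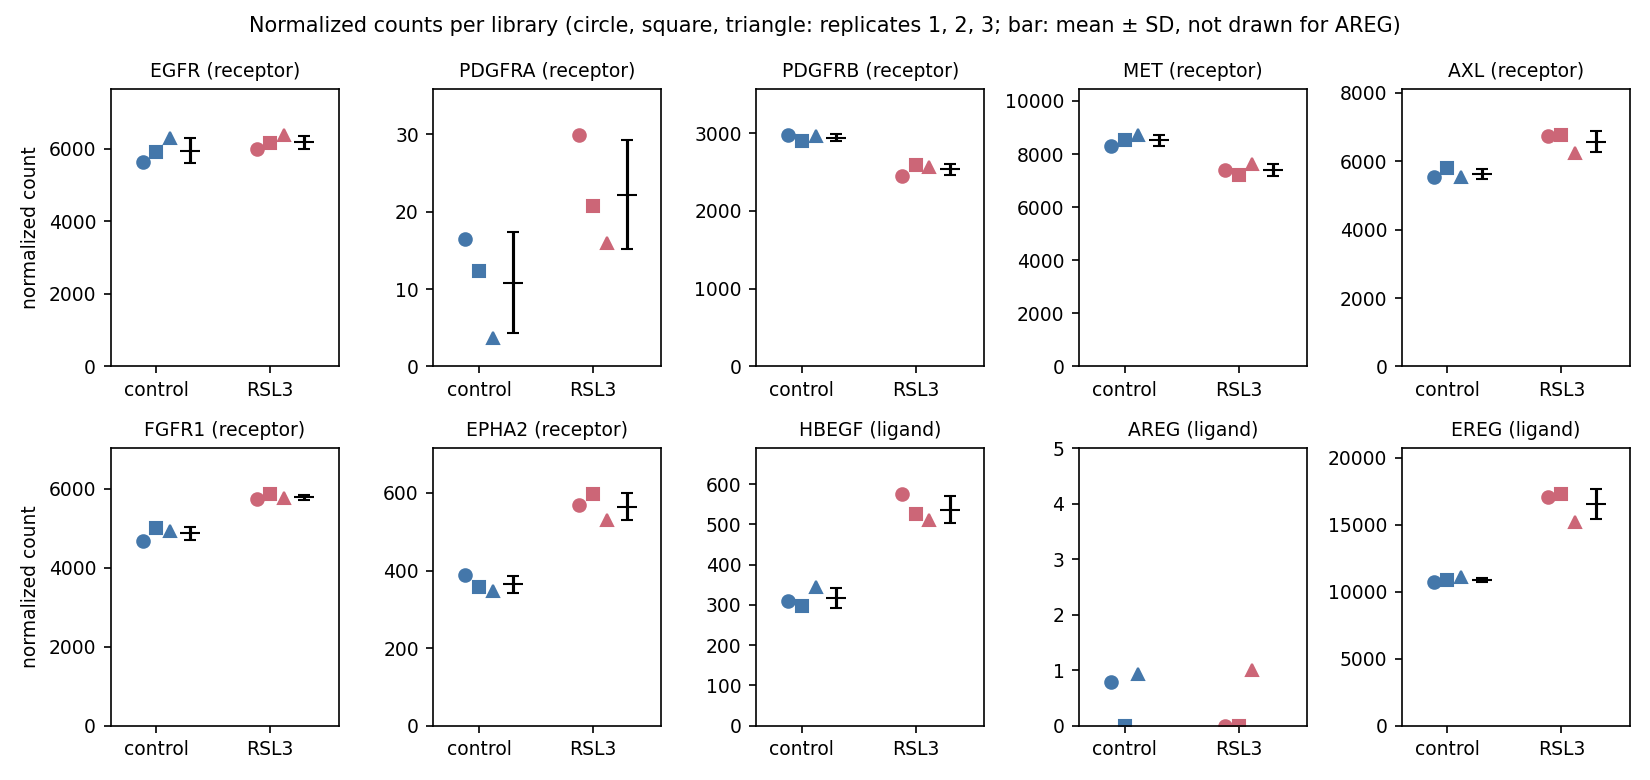
Normalized counts (vertical axes, each gene on its own scale) of the 10 genes in the 3 control and 3 RSL3 libraries, with circles, squares and triangles for replicates 1, 2 and 3 and bars for mean ± SD (none drawn for AREG). EREG, HBEGF, EPHA2, FGFR1 and AXL show all RSL3 libraries above all control libraries, PDGFRB and MET the reverse, and EGFR and PDGFRA overlap.

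Of the 7 receptors, 3 were upregulated, 2 were downregulated and 2 did not pass the test, and their median log2 fold change was 0.22 against 0.00 over all genes tested. With the ligands, 7 of the 9 tested genes were called, beside 25.6% of all tested genes; the same 7 were those whose groups did not overlap, which held for 38.6% of all tested genes. The genes were chosen with earlier results of these data known, so these shares describe the 10 genes and no more.

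EPHA2 showed the greatest change among the called receptors. It encodes a receptor for ephrin-A ligands on neighbouring cells (ENSG00000142627, chr1:16124337-16156069, minus strand). Normalized counts were 388, 358 and 347 in control and 570, 596 and 529 in RSL3 libraries. The lowest RSL3 library exceeded the highest control library, and the mean rose 1.55-fold, from 364 ± 21.1 to 565 ± 33.8 (log2 fold change 0.63, SE 0.08, 95% interval 0.46 to 0.80, edgeR adjusted p = 6.83e-06). Among tested genes 6.63% changed more in absolute log2 fold change.

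FGFR1 and AXL rose by smaller amounts from a level more than 10 times that of EPHA2 in counts. FGFR1, a receptor for fibroblast growth factors (ENSG00000077782, chr8:38400215-38468834, minus strand), gave 4683, 5003 and 4928 normalized counts in control and 5742, 5860 and 5761 in RSL3 libraries. The RSL3 libraries lay close together above all controls, with means of 4871 ± 167 and 5788 ± 63.6 (1.19-fold, log2 fold change 0.25, SE 0.03, 95% interval 0.18 to 0.32, edgeR adjusted p = 8.11e-06). AXL, a receptor of the TAM family that binds GAS6 (ENSG00000167601, chr19:41219223-41261766, plus strand), gave 5547, 5810 and 5544 in control and 6741, 6760 and 6227 in RSL3 libraries. Its groups did not overlap either, and the mean rose from 5634 ± 153 to 6576 ± 302 (1.17-fold, log2 fold change 0.22, SE 0.04, 95% interval 0.15 to 0.30, edgeR adjusted p = 7.18e-05). About this size of change was common, with 28.3% of tested genes changing more than FGFR1 and 32.2% more than AXL.

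MET and PDGFRB were downregulated to a similar extent. MET is the receptor for hepatocyte growth factor (ENSG00000105976, chr7:116672196-116798377, plus strand), and its normalized counts were 8304, 8548 and 8710 in control and 7386, 7196 and 7616 in RSL3 libraries. All RSL3 libraries were below all control libraries, and the mean went from 8521 ± 205 to 7400 ± 210 (log2 fold change -0.20, SE 0.03, 95% interval -0.27 to -0.14, edgeR adjusted p = 5.77e-05), 1.15-fold higher in control. PDGFRB, the receptor for PDGF-BB and PDGF-DD (ENSG00000113721, chr5:150113839-150155872, minus strand), gave 2972, 2893 and 2960 in control and 2445, 2587 and 2564 in RSL3 libraries. Again the groups were apart, with means of 2942 ± 42.8 and 2532 ± 76.2 (log2 fold change -0.22, SE 0.04, 95% interval -0.29 to -0.14, edgeR adjusted p = 0.000141), 1.16-fold higher in control. Among tested genes 35.5% changed more than MET and 33.3% more than PDGFRB.

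EGFR, the receptor of the 3 ligands, did not pass the test. It lies at chr7:55019017-55211628 (ENSG00000146648, plus strand), and gave 5631, 5899 and 6306 normalized counts in control and 6005, 6149 and 6372 in RSL3 libraries. Control replicate 3 was above RSL3 replicates 1 and 2, so the groups overlapped. The means were 5945 ± 340 and 6175 ± 185 (log2 fold change 0.06, SE 0.04, edgeR adjusted p = 0.329), and the 95% interval of the fold ran from 0.983 to 1.10. Without control replicate 3 the log2 fold change was 0.10 with an edgeR adjusted p of 0.0498, so this call turned on 1 library; over all alternatives the adjusted p ran from 0.0498 to 0.82 and the log2 fold change from 0.02 to 0.10.

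PDGFRA, the receptor for PDGF-AA and other PDGF dimers (ENSG00000134853, chr4:54229280-54298245, plus strand), was close to the detection limit in these cells. Its raw counts were 21, 10 and 4 in control and 26, 20 and 16 in RSL3 libraries, or 16.5, 12.3 and 3.70 against 29.9, 20.8 and 16.0 normalized counts. Control replicate 1 was above RSL3 replicate 3, and the means were 10.8 ± 6.53 and 22.2 ± 7.07. The log2 fold change of 1.00 (SE 0.46, 95% interval 0.04 to 1.96) had an unadjusted p of 0.0411 and an edgeR adjusted p of 0.121, and it was not called. Summed over libraries the reads were 35 in control (exact Poisson 95% interval 24.4 to 48.7) and 62 in RSL3 (47.5 to 79.5). Of its exon bases 16.1% are shared with an overlapping identifier, ENSG00000282278, that was at 0 in every library. The share of exon bases that overlap another gene was 3.05% for FGFR1, 1.31% for AXL, 1.17% for EGFR and 0 for the remaining genes, and counting did not use strand.

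**Figure D2:**
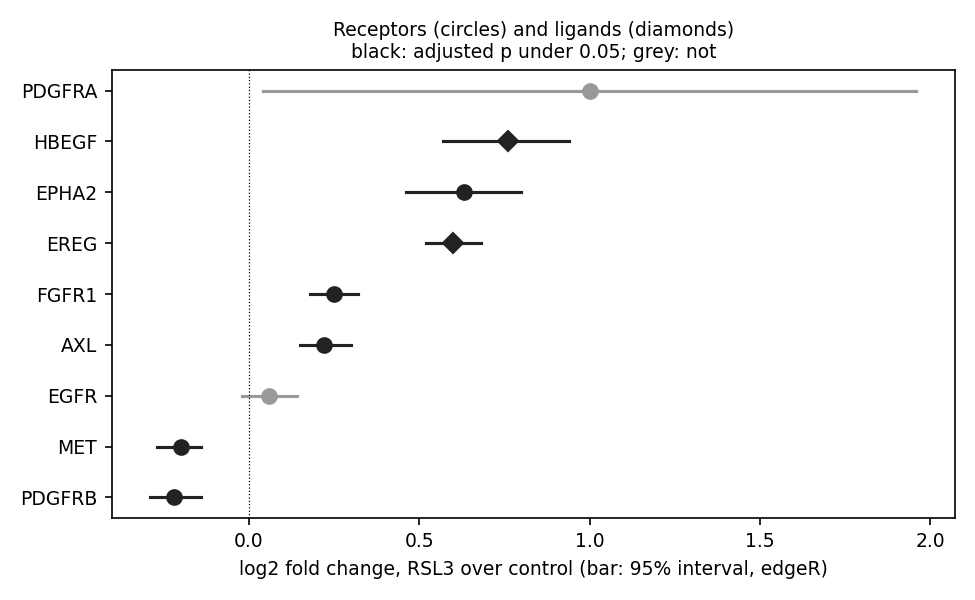
Log2 fold change, RSL3 over control, of the 9 tested genes (horizontal axis) with 95% intervals from edgeR, circles for receptors and diamonds for ligands, black where the adjusted p was under 0.05. HBEGF, EPHA2 and EREG lie between 0.60 and 0.76, FGFR1 and AXL near 0.2, PDGFRB and MET near -0.2, EGFR's interval spans 0, and that of PDGFRA is the widest.

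To compare levels between genes, counts were divided by library size and by the length of the merged exons of each gene (RPKM, reads scaled to exon length and sequencing depth). In control libraries EREG had the highest level, 55.9 ± 0.819 RPKM (SD, n = 3), followed by MET at 34.6 ± 0.831, AXL at 32.2 ± 0.873, PDGFRB at 12.1 ± 0.176, EGFR at 10.9 ± 0.625, FGFR1 at 8.30 ± 0.285, HBEGF at 3.10 ± 0.241 and EPHA2 at 2.58 ± 0.149. No neighbours in this order overlapped between libraries, with the exception of PDGFRA at 0.0333 RPKM and AREG at 0.0102 RPKM. After RSL3 the order changed at 2 places. AXL, at 37.6 ± 1.73 RPKM, was above MET, at 30.0 ± 0.854, and EGFR, at 11.4 ± 0.34, was above PDGFRB, at 10.4 ± 0.313. EREG stood at 84.8 ± 5.72, HBEGF at 5.26 ± 0.325 and EPHA2 at 4.00 ± 0.239 RPKM.

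The order of receptors depended on the length used. Per kilobase of the canonical transcript, an alternative chosen after seeing the data, FGFR1 stood at 25.1 RPKM in control and 29.8 in RSL3 libraries, above EGFR (17.6 and 18.3) and PDGFRB (15.1 and 13.0), and MET (36.6) and AXL (35.0) overlapped in control libraries. The place of EREG as highest of the 10 genes was the same with both lengths.

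**Figure D3:**
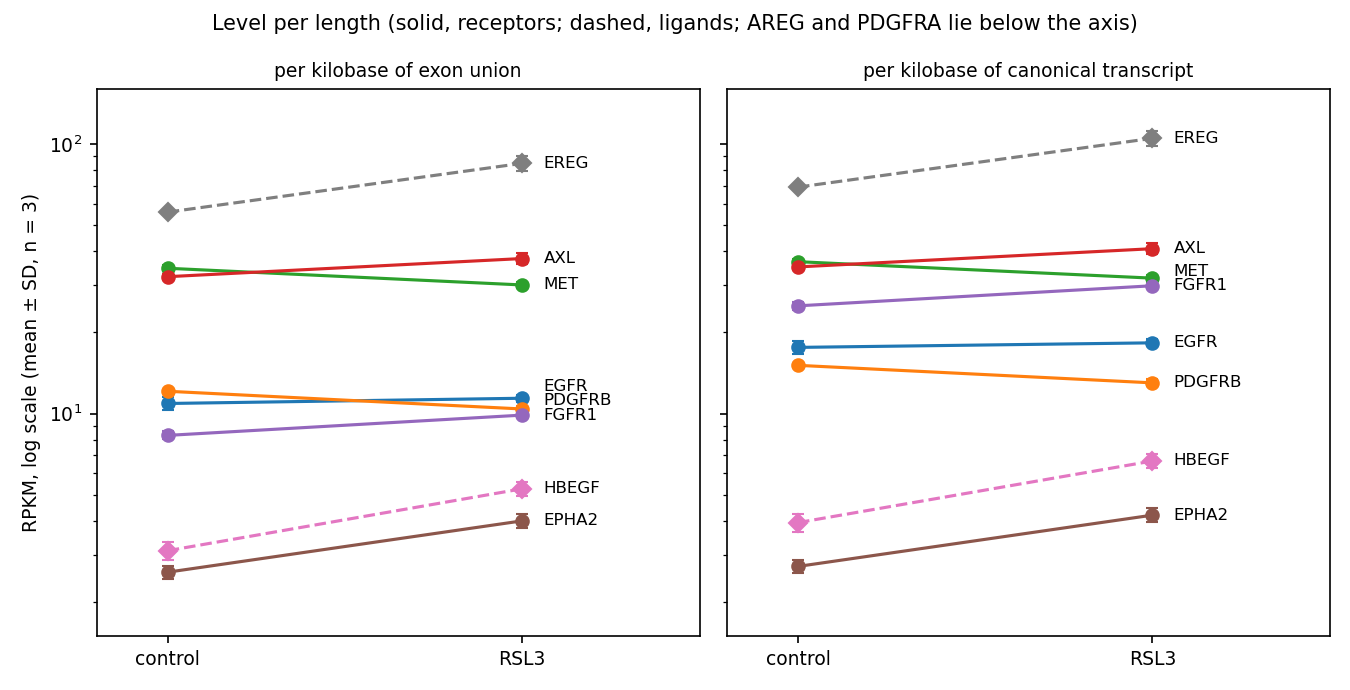
Mean RPKM ± SD (n = 3, logarithmic axis) of 8 of the 10 genes in control and RSL3 libraries, per kilobase of merged exons (left) and of the canonical transcript (right), with solid lines for receptors and dashed lines for ligands; AREG and PDGFRA lie below the axis. EREG is highest throughout, AXL crosses MET in both panels, and FGFR1 moves above EGFR and PDGFRB when the canonical length is used.

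Ratios of 2 genes within a library do not depend on scaling between libraries. The ratio of AXL to MET counts was 0.668, 0.68 and 0.636 in control and 0.913, 0.939 and 0.818 in RSL3 libraries. All 3 RSL3 ratios were higher, with means of 0.661 ± 0.0224 and 0.89 ± 0.064. The ratio of FGFR1 to PDGFRB counts went from 1.66 ± 0.0772 to 2.29 ± 0.0541, that of EGFR to PDGFRB from 2.02 ± 0.119 to 2.44 ± 0.056. Set against their receptor, EREG counts went from 1.84 ± 0.0776 to 2.68 ± 0.251 per EGFR count, and HBEGF counts from 0.0532 ± 0.00256 to 0.087 ± 0.00785. In each of these 5 ratios the groups did not overlap. The exact two-sided permutation test gave p = 0.1 for each, the smallest that 3 against 3 libraries allow. For AXL to MET and FGFR1 to PDGFRB the separation follows from the single genes, whose groups were already apart in opposite directions. The ratios use the same counts as the tests of single genes and are no separate support for them.

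The RSL3 libraries were not equally far from the controls. Among the 7 called genes, RSL3 replicate 3 was the RSL3 library nearest to the control mean for 5 (MET, AXL, EPHA2, HBEGF and EREG). Over all 4123 called genes it was the nearest for 54.4%, so this held for the libraries at large. Leaving it out changed no call among the 10 genes.

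The EGF family was then taken as a whole, with the 8 ligands that are not among the 10 genes. Of these, 5 were tested, 3 were upregulated (12.9% of all tested genes were), 0 were downregulated, and the median log2 fold change was 0.27. The 3 were NRG1, a neuregulin that binds ERBB3 and ERBB4 (5110 ± 225 to 6158 ± 174 normalized counts, log2 fold change 0.27, SE 0.04, edgeR adjusted p = 7.21e-06), NRG2 (222 ± 25.8 to 303 ± 20, log2 fold change 0.44, edgeR adjusted p = 0.00503) and betacellulin, BTC (511 ± 35.4 to 620 ± 52.5, log2 fold change 0.28, edgeR adjusted p = 0.0139). The EGFR ligands TGFA (896 ± 50.3 and 927 ± 66.8, log2 fold change 0.05, edgeR adjusted p = 0.663) and EGF (98.5 ± 21.4 and 107 ± 14.2, log2 fold change 0.10, edgeR adjusted p = 0.757) were not called; both were named after their values were seen. The call of BTC was lost without control replicate 2, RSL3 replicate 2 or RSL3 replicate 3 (edgeR adjusted p = 0.0538, 0.0709 and 0.0575).

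Per length, the summed level of the EGF family went from 78.6, 77.8 and 80.1 RPKM in control to 116, 118 and 106 RPKM in RSL3 libraries. Every RSL3 library was higher (78.9 ± 1.16 and 113 ± 6, exact two-sided permutation p = 0.1, the smallest possible). EREG made up 70.2, 71.6 and 70.9% of this sum in control and 75.5, 75.4 and 73.5% in RSL3 libraries. Its share was higher in all 3 RSL3 libraries, 74.8% ± 1.14 against 70.9% ± 0.707, and so was that of HBEGF, 4.65% ± 0.237 against 3.93% ± 0.246. The share of TGFA was lower, 4.88% ± 0.206 against 6.77% ± 0.304, and that of NRG1 was lower although its counts rose, 7.46% ± 0.302 against 8.89% ± 0.512. For these 4 shares the exact two-sided permutation test again gave its smallest p, 0.1, and cannot pass 0.05 with 3 libraries a group. The ratio of EREG to HBEGF per length, 18.1 ± 1.17 in control and 16.1 ± 0.918 in RSL3 libraries, overlapped between groups (exact permutation p = 0.2).

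**Figure D4:**
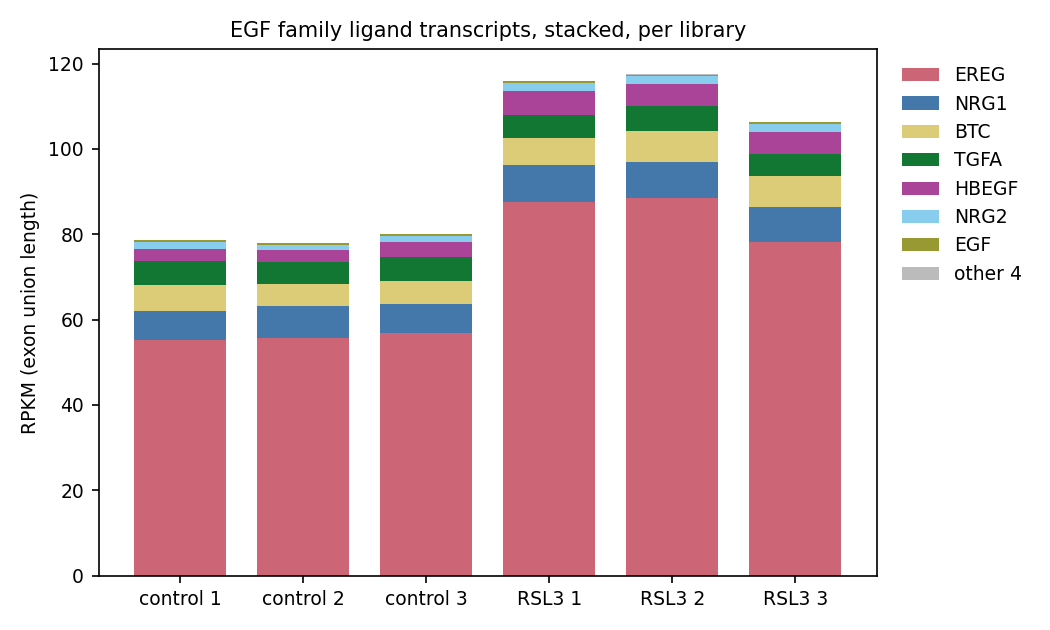
Stacked RPKM (vertical axis, per kilobase of merged exons) of the EGF family ligands in each of the 6 libraries. EREG fills 70.2 to 71.6% of the bar in control and 73.5 to 75.5% in RSL3 libraries, and the bars are taller in all RSL3 libraries (106 to 118 RPKM against 77.8 to 80.1).

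Among the other 51 receptor tyrosine kinases, 26 were tested, of which 4 were upregulated and 3 downregulated, 26.9% called against 25.6% of all tested genes, with a median log2 fold change of 0.06. LMTK2, a membrane-anchored kinase of the lemur family, rose from 1683 ± 49.7 to 2174 ± 42.7 normalized counts (log2 fold change 0.37, SE 0.04, edgeR adjusted p = 7.65e-07). The VEGF receptor KDR (log2 fold change 0.54, edgeR adjusted p = 0.0103) and the ephrin receptors EPHB1 (0.83, edgeR adjusted p = 0.00553) and EPHA5 (0.29, edgeR adjusted p = 0.00725) also rose. EPHA4, another ephrin receptor, fell from 226 ± 8.59 to 125 ± 22.9 (log2 fold change -0.86, SE 0.14, edgeR adjusted p = 8e-05), so ephrin receptors moved in both directions. ROR1 (log2 fold change -0.79, edgeR adjusted p = 0.00566) and PTK7 (-0.15, edgeR adjusted p = 0.0378), both pseudokinase receptors of Wnt signalling, were lower too. The call of KDR was lost without RSL3 replicate 2 (edgeR adjusted p = 0.0599), and that of PTK7 without control replicate 1 or 3 or RSL3 replicate 1 or 2 (edgeR adjusted p = 0.137, 0.134, 0.0542 and 0.208).

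Of 18 ligands for MET, the TAM family of AXL, and the PDGF, FGF and ephrin-A receptors, 12 were tested. Of these, 1 was upregulated and 2 were downregulated, with a median log2 fold change of -0.08. The share called, 25.0%, was near the 25.6% of all tested genes. FGF2, a ligand of FGFR1, rose from 18922 ± 283 to 20866 ± 552 normalized counts (log2 fold change 0.14, SE 0.03, edgeR adjusted p = 0.000811), with 11.8% of its exon bases shared with NUDT6 on the other strand. HGF, the ligand of MET, fell from 658 ± 34.3 to 566 ± 29.8 (log2 fold change -0.22, SE 0.07, edgeR adjusted p = 0.0305); this call was lost without control replicate 1 or 3 or RSL3 replicate 1 or 3 (edgeR adjusted p = 0.0711, 0.129, 0.0535 and 0.132). PROS1, protein S, a ligand of the TAM receptors, fell from 4377 ± 101 to 3681 ± 97.9 (log2 fold change -0.25, SE 0.03, edgeR adjusted p = 1.25e-05).

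Genes that act on the shedding of EGFR ligands or on the turnover of the receptor moved in both directions. Of 18 such genes 17 were tested, 7 were upregulated and 4 downregulated (64.7% called, against 25.6% of all tested genes, median log2 fold change 0.03). ADAM17, the main protease that sheds epiregulin, amphiregulin, HB-EGF and TGFα, gave 3753, 3801 and 3788 normalized counts in control and 5398, 5159 and 4855 in RSL3 libraries. All RSL3 libraries were higher (3781 ± 24.6 and 5137 ± 272, log2 fold change 0.44, SE 0.04, edgeR adjusted p = 1.43e-08), with 11.7% of its exon bases shared with other genes. ADAM10, the main sheddase of EGF and betacellulin, went the other way, from 7784 ± 315 to 6480 ± 250 (log2 fold change -0.26, SE 0.04, edgeR adjusted p = 1.02e-05). The ubiquitin ligases that mark EGFR for degradation differed in sign as well, CBL being higher (log2 fold change 0.26, edgeR adjusted p = 6.11e-05) and CBLB lower (-0.22, edgeR adjusted p = 0.00231). ERRFI1, an inhibitor of the EGFR kinase (0.20, edgeR adjusted p = 0.000411), and LRIG1, a membrane protein that lowers EGFR levels (0.29, edgeR adjusted p = 0.000786, 37.9% of exon bases shared with SLC25A26), were higher. The phosphatase PTPRJ (-0.21, edgeR adjusted p = 0.0101) and the CBL-binding adaptor SH3KBP1 (-0.11, edgeR adjusted p = 0.0152) were lower. Both calls were lost without control replicate 2 (edgeR adjusted p = 0.0548 and 0.0757), that of PTPRJ also without RSL3 replicate 2 (0.0776) and that of SH3KBP1 without RSL3 replicate 3 (0.088).

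Of 20 adaptors and first effectors 19 were tested, with 3 upregulated, 3 downregulated and a median log2 fold change of 0.01. The share called, 31.6%, was near the 25.6% of all tested genes, and 3 were called in all when either RSL3 replicate 1 or RSL3 replicate 2 was left out. IRS1, the docking protein of the insulin and IGF-1 receptors, changed most, from 4442 ± 230 to 3299 ± 186 normalized counts (log2 fold change -0.43, SE 0.04, edgeR adjusted p = 1.83e-07). PIK3R1, a regulatory subunit of PI3K (-0.15, edgeR adjusted p = 0.0288), and the transcription factor STAT3 (-0.13, edgeR adjusted p = 0.0268) were lower by small amounts. PLCG1, a phospholipase that docks on activated receptors (0.25, edgeR adjusted p = 2.99e-05), the adaptor SHC1 (0.17, edgeR adjusted p = 0.000191, 15.2% of exon bases shared) and the RAS exchange factor SOS1 (0.12, edgeR adjusted p = 0.0448) were higher. The calls of PIK3R1, STAT3 and SOS1 depended on which libraries were included. That of PIK3R1 was lost without control replicate 2 or 3 or RSL3 replicate 1 or 2 (edgeR adjusted p = 0.0734, 0.15, 0.103 and 0.0745). That of STAT3 was lost without control replicate 2 or 3 (0.0713 and 0.185) or any of the RSL3 replicates 1 to 3 (0.0568, 0.0534 and 0.095), and that of SOS1 without control replicate 1 (0.274) or any RSL3 replicate (0.0811, 0.139 and 0.0599).

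**Figure D5:**
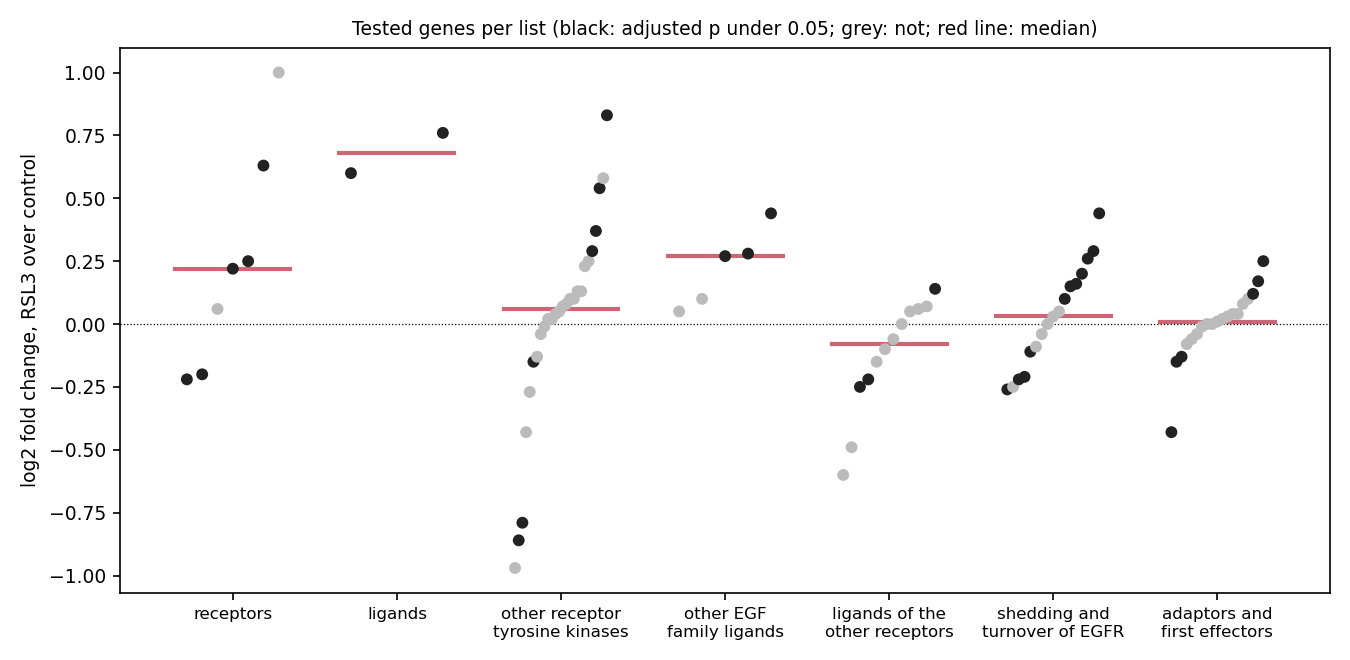
Log2 fold change, RSL3 over control (vertical axis), of the tested genes in each list, black where the edgeR adjusted p was under 0.05, with a red line at the list's median. The medians of the 5 lists of other genes lie between -0.08 and 0.27, and called genes are found on both sides of 0 in each of them except the other EGF family ligands, where 3 of 5 were higher and none lower.

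The surroundings of the ligand genes on chromosome 4 were examined within 250 kb. A single neighbour of EREG and AREG passed the filter, MTHFD2L, a mitochondrial folate enzyme gene 62.0 kb from EREG (chr4:74114174-74303099, plus strand), which rose from 1278 ± 34.1 to 1649 ± 43.1 normalized counts (log2 fold change 0.37, SE 0.05, edgeR adjusted p = 3.45e-06). EPGN, a further EGF family ligand 48.4 kb from EREG that was named after its values were seen, had raw counts of 1, 2 and 4 in control and 10, 5 and 5 in RSL3 libraries and was below the filter. Around PDGFRA, 12 genes were annotated and 1, CHIC2, was tested; its log2 fold change of 0.17 had an edgeR adjusted p of 0.138.

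Across the 6 libraries, the profile of EREG was compared with that of 11463 genes having a mean of at least 100 normalized counts, by the root mean square difference of log2 values centred on the control mean. The 3 nearest were MIR4435-2HG, a long non-coding RNA (0.0302), GDF15, a stress-induced cytokine of the TGF-β superfamily (0.0406), and HMGA1, an architectural chromatin protein (0.0412). Their log2 fold changes were 0.58, 0.61 and 0.58, close to the 0.60 of EREG, as choosing genes by this difference requires. The similarity rests on 2 groups of 3 libraries.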

How the data were processed

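The authors isolated total RNA, prepared libraries with NEBNext Ultra II and sequenced them paired-end on a NextSeq. Per the labels and methods, reads were checked with FastQC 0.11.5, trimmed with Trimmomatic 0.36, aligned with HISAT2 to GRCh38.p4 and processed with SAMtools 1.3.1, and HTSeq 0.6.1p1 counted them per gene over exons without strand. The annotation release is not given in the sources used here. The deposited values are raw counts per gene, 1 file per library. Unstranded counting mixes reads of overlapping genes. The share of exon bases concerned is given for the 10 genes, but not for every other gene named. Examples without it above are VIM (24.6%), MBP (10.6%) and PLCG1 (6.36%), and further named genes share smaller parts.

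Counts were tested with edgeR 4.0.16 (R 4.3.3; filterByExpr with a minimum of 10, TMM scaling, quasi-likelihood F test, no covariate, Benjamini-Hochberg at 0.05) on all genes, and intervals used the total degrees of freedom of that fit. The fit was tested on simulated data. The study tested with DESeq2, removing hidden batches as surrogate variables whose number its text does not state, so DESeq2 1.42.0 with sva 3.50.0 was run as an alternative. Gene positions, lengths and overlaps came from GENCODE v44 on GRCh38, and promoters from RefSeq. The members and lists were chosen with earlier results of these data known. In the lists of other genes, those named were the called genes with the smallest p, up to 4 in each direction, apart from genes said to be named after their values were seen. Single values were compared by exact two-sided permutation, which cannot go below 0.1. With at least 27813462 counts a library, counting error weighs most on PDGFRA and AREG. Within groups, no pair of libraries agreed within sampling noise by a chi-square test of counts.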

Additional observations from a re-analysis of the deposited data

How the results depend on the processing

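Of 133 fold changes of the members under alternatives (other scalings and filters, DESeq2 with 0, 1 or 2 surrogate variables, a replicate block, an adjusted p under 0.01, each library left out), 132 kept direction and call; the other was EGFR without control replicate 3 (0.10, adjusted p = 0.0498). EREG ranged from 0.57 to 0.66, HBEGF from 0.71 to 0.82, EPHA2 from 0.59 to 0.68 and the uncalled PDGFRA from 0.59 to 1.53; PDGFRA could not be fitted where every library needed 10 counts, and DESeq2 with 2 surrogate variables gave it no adjusted p. Apart from the cell markers, whose calls are not part of these counts, 31 other named genes were called. Of these, 19 were called under every alternative, and 9 lost the call when 1 library was left out, as given beside them. ROR1, EPHA5 and EPHB1 lost it only under DESeq2 with 2 surrogate variables. DESeq2 with 2 surrogate variables called 1159 genes higher and 1109 lower, 2 other receptor tyrosine kinases, 7 genes of shedding and turnover and 3 adaptors. Adaptors called were also 3 with 0 or 1 surrogate variables, and 3 to 5 with a library left out. An adjusted p under 0.01 left 1348 genes higher and 1343 lower, 7 genes of shedding and turnover and 3 adaptors; the cause of the shifts under DESeq2 was not tested. In raw counts, not per length, the share rose by 5.21 percentage points for EREG (3.87 per length) and 0.379 for HBEGF (0.714 per length). Deviations from the group mean of libraries with the same replicate number correlated at 0.0222, 0.0273 and 0.0745. Pairs with differing numbers ran from -0.0514 to 0.0242, the highest being RSL3 replicate 1 with control replicate 2. Whether libraries of the same number share more than that number was not tested. With the replicate block 2350 genes were higher and 2283 lower, against 2082 and 2041 without it. Of the members, 5 were higher and 2 lower, as without it. AREG, with 3 reads in all, and PDGFRA are limited by depth.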

Other observations

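DDR2, a collagen receptor tyrosine kinase named after its values were seen, had a higher level per length than any of the 7 receptors described, 91.1 RPKM in control and 92.1 in RSL3 libraries (34467 ± 1436 and 34868 ± 228 normalized counts, SD, n = 3), and was not called (log2 fold change 0.02, adjusted p = 0.742 by edgeR). FGF2, at 81.6 RPKM in control and 90.0 in RSL3 libraries, had a mean above that of all 10 genes in both groups, EREG included. In RSL3 libraries FGF2 (87.3, 91.8 and 90.8 RPKM) and EREG (87.6, 88.6 and 78.2 RPKM) overlapped. These levels are per kilobase of merged exons, and FGF2 was not compared with EREG per kilobase of the canonical transcript.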
